A study of Mus musculus with 8 samples.

Results

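Broad acetylated domains are long stretches of chromosome in which many peaks of H3K27ac lie close together. The 4 H3K27ac peak lists of the series were merged into 43091 regions, joining peaks that overlapped by 1 bp or more. Regions no more than 12500 bp apart were then joined into 13840 domains. An autosomal domain was kept as broad if the peaks of each of the 4 libraries covered 10000 bp or more of it. This left 517 domains, and the 7246 merged regions inside them (16.8% of all regions) are the members described here. The domains were thus chosen by the covered length in all 4 libraries, and covered lengths are given below as a description and carry no test.

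The mark was profiled by chromatin immunoprecipitation and sequencing in crypts isolated from the whole small intestine of male and female mice aged 6 to 12 weeks. Fed mice had free access to food for 24 h, and fasted mice had water but no food for 24 h. The labels name Lgr5EGFP-IRES-CreERT2/+ mice, which carry a reporter and an inducible Cre recombinase at the stem cell gene Lgr5, and C57BL/6J mice, without saying which animals gave which library. Both feeding states shared the housing, single and on aspen bedding, and the inhibitor trichostatin A (100 nM) in the isolation solutions, which blocks the enzymes that remove acetyl groups from histones. All crypts were also held in a medium with a TGF-β receptor I kinase inhibitor (SB431542) and the ROCK inhibitor Y-27632 before fixation. Each library pooled the crypts of 4 animals. Of the 8 samples, 2 fed and 2 fasted H3K27ac libraries were used; values of the 4 input libraries alone were not analysed here. Replicate numbers follow the labels and give the library names fed 1, fed 4, fasted 2 and fasted 5. Whole crypts hold stem, progenitor, Paneth and other cells, so more cells with the mark and more of the mark in each cell cannot be told apart. No gene was assigned to any region, so marker genes of crypt or other cells could not be looked at.

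Acetylation of lysine 27 of histone H3 marks promoters and enhancers in use. Acetyltransferases such as p300 and CBP add it and histone deacetylases remove it. In many tissues a small number of loci carry dense clusters of acetylated elements, known as super-enhancers or stretch enhancers, and these often lie beside genes that define the cell type. Joining elements across gaps of up to 12500 bp is a common first step in finding them. The domains here differ from super-enhancers as usually defined, because promoters were kept and domains were ranked by covered length, not by read signal.

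The peak lists differed in length. They held 27640 peaks over 48.8 Mb in fed 1, 15504 over 21.9 Mb in fed 4, 37974 over 99.2 Mb in fasted 2 and 35917 over 109 Mb in fasted 5. The sequencing depth of each library is unknown. List length and feeding state moved together, and their parts in the results below cannot be told apart.

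The shortest list set which domains were kept. A length of 10000 bp or more was reached in 523 autosomal domains by fed 4, in 1335 by fed 1, in 2657 by fasted 2 and in 2902 by fasted 5. Fed 4 covered the least of the 4 libraries in 506 of the 517 broad domains, so the rule came close to a selection on fed 4 alone. With the rule applied to the other 3 libraries, 1318 domains were found without fed 4, against 508 to 511 when any other library was left out. The domains nearest the minimum were again bounded by fed 4. Positions are those of the mouse build mm9. A domain on chromosome 9 (121205757 to 121265106) was kept with 10009 bp in fed 4, while fed 1, fasted 2 and fasted 5 covered 22849, 44775 and 46983 bp. Those on chromosome 3 (10312553 to 10383142) and chromosome 7 (30016409 to 30077033) were kept with 10016 and 10018 bp in fed 4. A domain on chromosome 5 (66431856 to 66507714) was left out with 9989 bp in fed 4, while fed 1, fasted 2 and fasted 5 covered 29613, 50993 and 57864 bp. Those on chromosome 2 (127547179 to 127585424) and chromosome 7 (4667578 to 4717925) were left out with 9952 and 9945 bp in fed 4. None of the 379 domains on chromosomes X and Y would have met the length rule. The library that covered least reached at most 1512 bp there.

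Broad domains were few but held much of the acetylated sequence. They made up 3.74% of all domains, and their members held 33.7 Mb, 25.6% of the 132 Mb under a peak of any library. The rule kept domains by covered length, so a large share of the bases follows from it. From end to end they spanned 18722 to 444559 bp, with a median of 83505 bp, against a median of 4608 bp for the other domains. A broad domain held 1 to 74 members, with a median of 12. Peaks of any library lay over a median of 72.8% of its span (range 43.2 to 100%). The widest member held a median of 30.6% of the covered bases of its domain, and in 95 domains it held 50% or more. Only 3 domains were a single unbroken member. Most broad domains were therefore strings of separate members at short distances. Of the 6729 gaps between neighbouring members, 53.7% were 1000 bp or shorter, and the median gap was 847 bp.

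The largest domain, 438 kb long, lay on chromosome 8 (129015551 to 129453280). Peaks covered 246 (fed 1), 182 (fed 4), 325 (fasted 2) and 293 kb (fasted 5). In each library this was the highest value of any broad domain, and the mean of 262 kb was far above the 125 kb of the next. Its 53 members included the widest of all (129250113 to 129305695, 55583 bp), which was made of 10 peaks (fed 1), 16 (fed 4), 5 (fasted 2) and 3 (fasted 5). The same stretch was thus cut into more pieces in the fed lists. The best peak of that member stood at score percentile 99.8 (fed 1), 99.3 (fed 4), 98.5 (fasted 2) and 99.6 (fasted 5), where a percentile gives the percentage of peaks in the list that scored no higher. The score is the authors' own value for each peak and serves here only for ranking within a list.

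The second domain, on chromosome 14 (99601773 to 100046331), had the longest span of all and the most members (74). Peaks covered 110 (fed 1), 46.0 (fed 4), 188 (fasted 2) and 154 kb (fasted 5), and peaks of any library lay over only 51.0% of its span. It was a loose string of members, unlike the domain on chromosome 15 (36711703 to 36920260) that ranked next with 82.6% of its span under a peak. That domain had 119 (fed 1), 76.2 (fed 4), 159 (fasted 2) and 142 kb (fasted 5) covered. The fourth, on chromosome 6 (86418944 to 86661521), had 111 (fed 1), 59.0 (fed 4), 158 (fasted 2) and 148 kb (fasted 5). In all these domains fasted 2 and fasted 5 each covered more than fed 1 and fed 4.

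Domains 5 and 6 by size were neighbours on chromosome 5 (64956380 to 65156242, and 64682851 to 64933936). The former had 96.5 (fed 1), 53.0 (fed 4), 138 (fasted 2) and 115 kb (fasted 5) covered. The latter had 88.4, 54.2, 140 and 119 kb in the same order of libraries. The domain on chromosome 19 (3901917 to 4128120) had 87.5 (fed 1), 53.7 (fed 4), 136 (fasted 2) and 118 kb (fasted 5), and its widest member, 13109 bp, was the narrowest among the widest members of these 10 domains. The domain on chromosome 3 (89032500 to 89241871) had 80.9, 52.3, 133 and 127 kb in the same order. A second domain of chromosome 8 (122847087 to 123036050) had 78.2, 39.7, 149 and 126 kb, and its fasted to fed ratio of covered length, 2.33, was the highest among the 10. By library share it was the closest of the 10 to equal, with a log2 ratio of -0.36. The tenth, on chromosome 14 (26119127 to 26340617), had 99.6 (fed 1), 64.0 (fed 4), 103 (fasted 2) and 125 kb (fasted 5). Its ratio of covered length, 1.39, was the lowest of the 10, as was its log2 ratio of library share, -1.18, and its widest member had no fasted 2 peak at all, as described below. The order of sizes was only partly shared: 3 domains stood among the 10 largest of every library, and 16 among the 10 largest of at least 1.

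**Figure D1:**
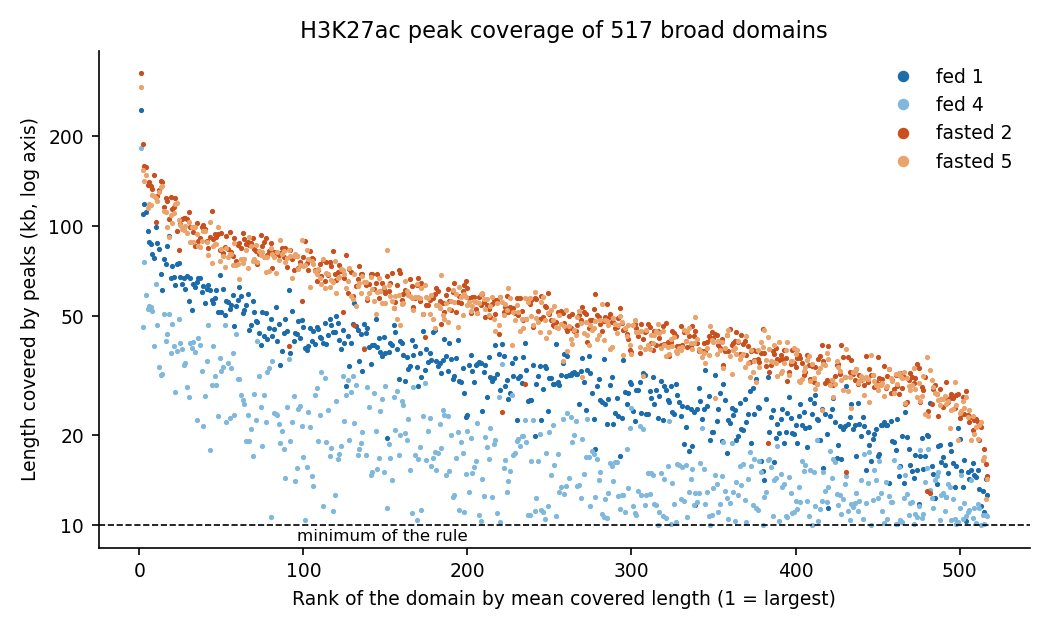
Length covered by peaks (kb, log axis) in each of the 517 broad domains, ordered by the mean over the 4 libraries (rank 1 is the largest); each point is 1 library in 1 domain and the dashed line is the 10000 bp minimum. The fasted libraries lie close together above fed 1, fed 4 lies lowest and along the minimum, and the first domain stands apart.

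Broad domains weighed more in the fed lists than in the fasted lists. Their share of the covered bases of a library was 36.5% (fed 1), 45.0% (fed 4), 29.0% (fasted 2) and 25.4% (fasted 5). Both fed libraries lay above both fasted ones, with means of 40.7 ± 6.06% and 27.2 ± 2.58% (SD, n = 2). By number of peaks, 30.1% of fed 1 peaks, 39.0% of fed 4 peaks, 20.8% of fasted 2 peaks and 17.4% of fasted 5 peaks lay inside. Of the peaks at or above the 90th score percentile of their list, 49.8% (fed 1), 60.1% (fed 4), 34.5% (fasted 2) and 27.4% (fasted 5) lay inside. These shares are a description, since the rule leaned on fed 4 coverage, the lists differ in length and wider peaks scored higher. Such strong peaks made up a like part of the peaks inside in all 4 lists, 16.6, 15.4, 16.6 and 15.8% in that order, with 1378 (fed 1), 932 (fed 4), 1309 (fasted 2) and 984 (fasted 5) of them.

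Since fed 4 nearly set the rule, the share was also taken over domains chosen with both fasted libraries alone, an alternative added after the data were seen. Its 2532 domains held 76.7% of the covered bases of fed 1 and 80.9% of fed 4, against 69.5% of fasted 2 and 63.1% of fasted 5. The domains were still joined from the peaks of all 4 lists, and only the length rule left out the fed libraries. Within the file-name numbers 10 (fed 1 and fasted 2) and 11 (fed 4 and fasted 5), whose meaning the sources used here do not give, the fasted minus fed difference in share was -7.44 and -19.7 points. The order turned when each list was shortened to its top-scoring peaks of equal covered length. The shares in the 185 domains then found were 18.8% (fed 1), 17.2% (fed 4), 20.4% (fasted 2) and 19.7% (fasted 5).

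**Figure D2:**
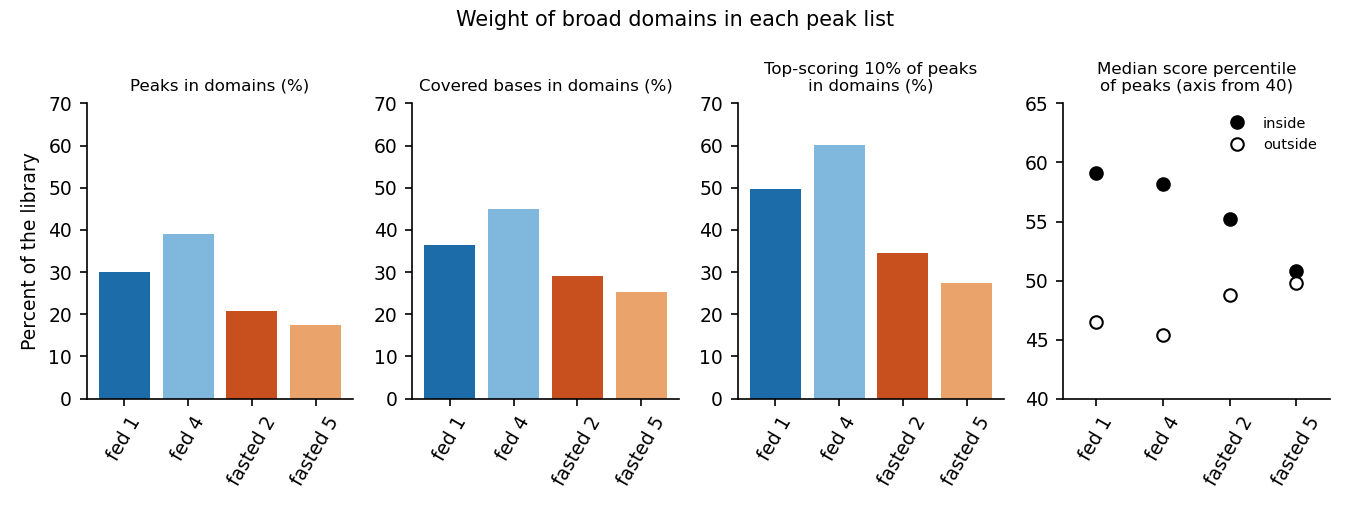
For each library (bars and points, 1 value per library), the share of its peaks, of its covered bases and of its top-scoring 10% of peaks that lay in broad domains, and the median score percentile of its peaks inside (filled) and outside (open) them. Both fed libraries lie above both fasted libraries in all 3 shares, and the gap between inside and outside is smallest in fasted 5.

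In covered length, the fasted libraries had more than the fed libraries in nearly every broad domain. The median domain had 30111 (fed 1), 15613 (fed 4), 49145 (fasted 2) and 47213 bp (fasted 5) covered. The mean of the fasted libraries exceeded the mean of the fed libraries in 517 of 517 domains, by 1.07-fold to 4.87-fold with a median of 2.06-fold. Each fasted library exceeded each fed one in 499 domains (96.5%). Among the 4396 autosomal domains with a peak in all 4 libraries the same order held in 95.3%, and the rule used these lengths, so nothing is read from the count. The reverse order was found in 0 broad domains, beside 0.0455%. The sum over broad domains was 17.8 (fed 1), 9.87 (fed 4), 28.8 (fasted 2) and 27.7 Mb (fasted 5), a ratio of group means of 2.04. Over the rest of the genome the sums were 31.0, 12.0, 70.4 and 81.4 Mb in the same order, a ratio of 3.53. The excess of fasted coverage was thus smaller inside the broad domains than outside them, in lists where the rule favours domains well covered in fed 4.

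Scaled to the total covered length of its library, the typical broad domain stood lower in the fasted lists. The log2 ratio of the mean fasted to the mean fed library share had a median of -0.57 and ran from -1.68 to 0.65, and it was above 0 in 25 of the 517 domains. The other 3879 domains with a peak in all 4 libraries had a median of -0.13. Both fed shares lay above both fasted shares in 408 broad domains (78.9%), beside 35.6% of all 4396 domains with a peak in all 4 libraries. The reverse order was found in 2 broad domains (0.387%), beside 16.9%. Both counts rest on the lengths that chose the domains and are given as a description. Between the library pairs, fed 1 had a lower share than fed 4 in the median domain, and fasted 2 a higher share than fasted 5.

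**Figure D3:**
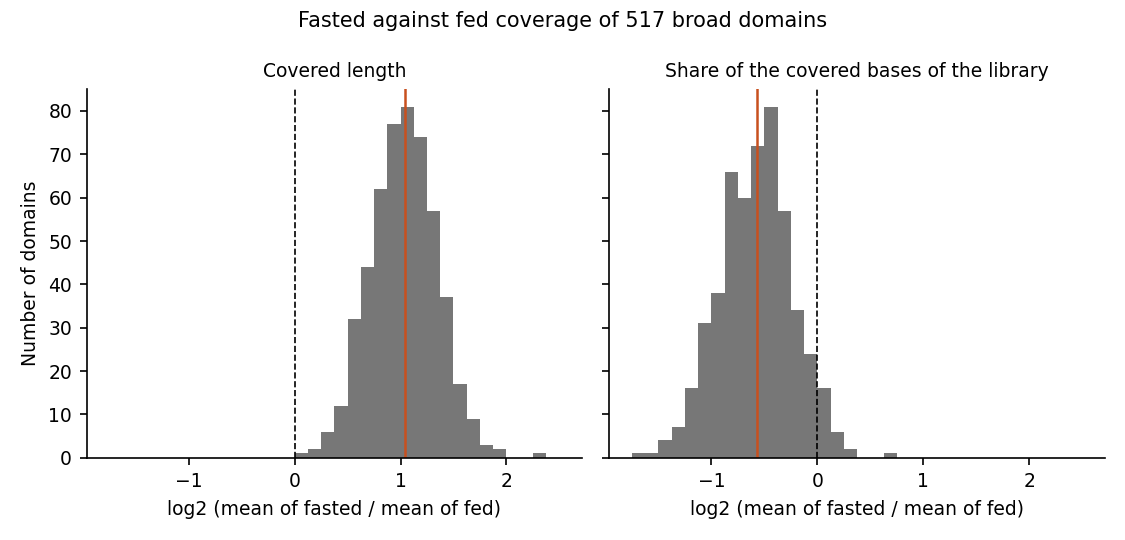
Number of broad domains by the log2 ratio of the fasted to the fed mean (n = 2 libraries each), for the covered length (left) and for the share of the covered bases of the library (right); the dashed line is 0 and the coloured line is the median. Covered length lies above 0 in all 517 domains with a median of 1.05, and the library share lies above 0 in 25.

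A few broad domains went with the fasted libraries by the group means of either measure. By library share, both fasted libraries lay above both fed ones in only 2 of the 517. These were the domains on chromosome 6 and chromosome 2 named here and below. In the others named for a high ratio, a fed share lay above the fasted 5 share. The strongest case lay on chromosome 6 (94584278 to 94685212). Peaks covered 19598 (fed 1), 11457 (fed 4), 67995 (fasted 2) and 83130 bp (fasted 5), a fasted to fed ratio of 4.87, the highest among the 517. The log2 ratio of library share was 0.65, and 0.47 to 0.85 when any library was left out. At equal covered length no ratio could be taken, because the fed or the fasted lists had no peak left there. A single fasted 5 peak of 37470 bp and a fasted 2 peak of 28520 bp filled its middle, where the longest fed peaks were 5938 and 2797 bp.

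The next by this ratio lay on chromosome 10 (21160806 to 21343571), with 39128 (fed 1), 10372 (fed 4), 89596 (fasted 2) and 74270 bp (fasted 5). Its log2 ratio of library share, 0.31, rested on fed 4, since it was -0.019 without that library and 0.74 without fed 1. On chromosome 2 (172931319 to 173014051) peaks covered 19839, 11120, 57431 and 60157 bp in the same order of libraries, and the ratio of 0.31 stayed between 0.16 and 0.47 when any library was left out. The domain on chromosome 12 (100581649 to 100683516) had 16995, 11327, 53281 and 49972 bp. Its ratio of 0.20 was -0.055 without fed 1 and -0.033 with peaks scoring 100 or more. With peaks scoring 200 or more no ratio could be taken, for the same reason as on chromosome 6. The domain on chromosome 19 (41866033 to 41988915) had 22450, 11254, 58298 and 55758 bp and a ratio of 0.17, which stayed between 0.069 and 0.27 with any library left out but was -0.84 with peaks scoring 200 or more.

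At the other end stood domains whose mean lengths were close in the fed and fasted libraries, although single libraries could differ widely. On chromosome 11 (98589678 to 98672800) peaks covered 40268 (fed 1), 34580 (fed 4), 23935 (fasted 2) and 55798 bp (fasted 5). The log2 ratio of library share was -1.68, the lowest of all, and between -2.32 and -1.13 with any library left out. The groups overlapped, since both fed libraries lay between the fasted ones. On chromosome 2 (38304479 to 38401800) the lengths were 47306, 39217, 38861 and 65203 bp in the same order, again with fasted 2 lowest, and the ratio of -1.48 lay between -1.86 and -0.97 with any library left out. The other 3 named for a low ratio were small. The domains on chromosome 15 (38485095 to 38522229) and chromosome 4 (154842818 to 154869608) were the smallest of the 517, with 14259, 10797, 15985 and 12276 bp in the former and 12582, 10772, 14596 and 14232 bp in the latter. The domain on chromosome 11 (118259325 to 118285512) was nearly solid, with 19825, 18006, 24127 and 23154 bp covered of its 26188 bp and a single fasted 5 peak of 23154 bp. The ratios of these 3 were -1.52, -1.43 and -1.43 in the order named, and at equal covered length the first pair turned to 0.18 and 0.17.

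**Figure D4:**
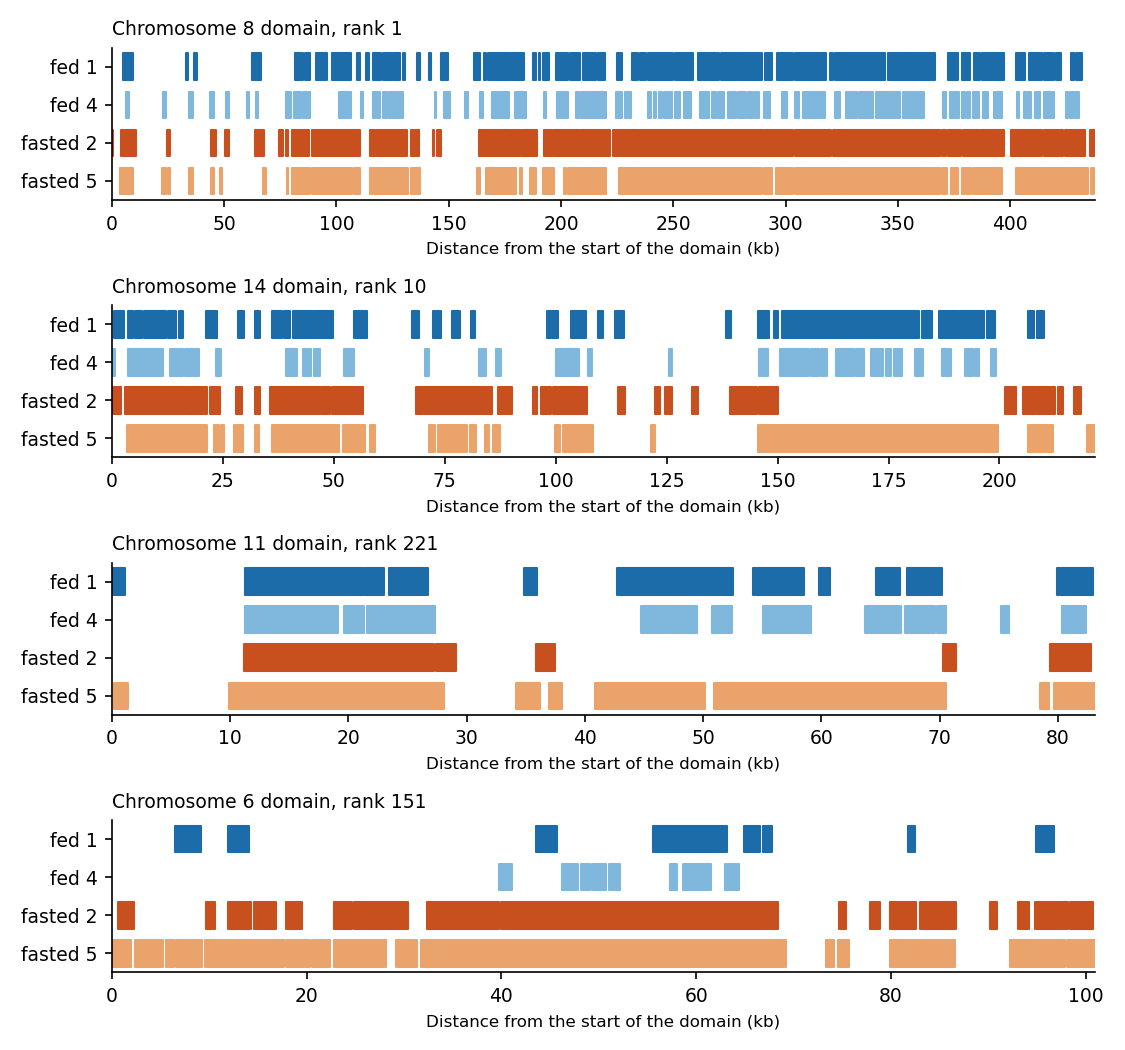
Peaks (bars) of the 4 libraries along 4 named domains, by distance from the start of the domain (kb). In the chromosome 8 domain, fasted peaks fill long stretches that are broken in the fed lists; in the chromosome 14 and chromosome 11 domains a stretch covered in the other 3 libraries has little or no fasted 2 peak; in the chromosome 6 domain the fasted peaks are far wider.

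The feeding states overlapped in covered length in 18 broad domains. Fed 1 covered more than fasted 2 in 9 domains and more than fasted 5 in 9. Fed 4 covered more than fasted 2 in 4 and more than fasted 5 in 0. The 3 largest differences in library share between the fasted libraries all had fasted 2 lower. On chromosome 9 (44273540 to 44326418) fasted 2 covered 13017 bp and fasted 5 36572 bp, while fed 1 covered 20078 bp and fed 4 15601 bp. The next, also on chromosome 9 (34898069 to 34947880), had 15024 and 38933 bp in the fasted pair, against 29243 and 14613 bp in the fed pair. On chromosome 1 (43197723 to 43245540) the values were 12808 and 33064 bp, beside 25726 and 13101 bp. The fed libraries differed most, after scaling to library length, in domains where fed 4 covered more than fed 1. These lay on chromosome 10 (79846958 to 79902275; 11449 bp in fed 1 and 13380 bp in fed 4), chromosome 4 (118177184 to 118219712; 12311 and 14174 bp) and chromosome 9 (69859600 to 69928607; 11680 and 12840 bp).

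Some wide members were well covered in 3 libraries and hardly or not at all in the remaining one. They were looked for with a rule set after the data were seen: 5000 bp or more covered in each of the other 3 libraries, and less than 10% of the lowest of these in the library in question. Fasted 2 lacked 9 of 588 such members, in 9 domains, with a median width of 22910 bp and 246 kb in all, and outside the domains it lacked 4 of 212 such regions. Fed 4 lacked 39 of 1125 members, with a median width of 10238 bp, and 135 of 1187 regions outside. Fasted 5 lacked 1 of 576 members and 0 of 207 regions outside, and fed 1 lacked 0 of 594 and 1 of 220. By this rule the members that fasted 2 lacked were well covered elsewhere, and wider peaks scored higher. The best peak of these members had a median score percentile of 98.5 in fed 1, 96.9 in fed 4 and 92.1 in fasted 5. The lowest were 86.8, 91.5 and 45.3 in the same order. In 7 of the 9 the fasted 5 coverage was a single peak.

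The widest of them was the member on chromosome 14 (26269538 to 26318793) in the tenth-largest domain, with 44475 (fed 1), 28618 (fed 4), 0 (fasted 2) and 49256 bp (fasted 5) covered. Others lay on chromosome 2 (38366662 to 38401800), with 25609, 24095, 0 and 35139 bp, and on chromosome 7 (52957684 to 52989796), with 13374, 18962, 0 and 32113 bp. On chromosome 11 (98630508 to 98661048) fasted 2 had 1121 bp, beside 20006, 16743 and 28957 bp. The remaining 5 were a pair on chromosome 2 (25078706 to 25098984, and 32376821 to 32399730), one on chromosome 4 (132599913 to 132622377) and a pair on chromosome 9 (34914643 to 34927626, and 44289289 to 44309392). Each had 0 bp in fasted 2 and 12984 to 22574 bp in fasted 5. Of the domains named above for a low fasted 2 value, those on chromosomes 2, 9 and 11 each hold one of these members, and the one on chromosome 1 does not. The member that fasted 5 lacked lay on chromosome 11 (80596396 to 80617878), with 16140 bp in fed 1, 6116 bp in fed 4 and 21483 bp in fasted 2. Why a list had no peak there was not tested, and the files hold no reads to look at.

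The number of peaks in a broad domain overlapped between the feeding states, while the mean width of a peak inside was higher in both fasted libraries. A domain held a mean of 16.1 (fed 1), 11.7 (fed 4), 15.3 (fasted 2) and 12.1 peaks (fasted 5). The groups overlapped, and the difference of the means was -0.22 peaks (two-sided exact permutation test, p = 1, n = 2). With 2 libraries in each group, the exact test cannot go below p = 0.333. The difference depended on the lists: with equal numbers of top-scoring peaks it was -4.77, from 9.58 (fed 1), 11.05 (fed 4), 6.34 (fasted 2) and 4.75 (fasted 5), and at equal covered length it was -6.58, with both fed libraries above both fasted ones in either case. With peaks scoring 200 or more it was 2.32, in the other direction. Both fed libraries had more peaks than both fasted ones in 104 broad domains (20.1%). Among the 4396 domains with a peak in all 4 libraries this held in 5.19%. The reverse held in 56 broad domains (10.8%), beside 28.6%. The rule asked for 10000 bp in fed 4, whose peaks were the narrowest, so kept domains tend to hold many fed 4 peaks. Peak number is thus not independent of the selection, and the difference and these counts are given as a description. With the length rule over both fasted libraries only, the difference was 1.84. A peak inside the domains averaged 2.14 (fed 1), 1.63 (fed 4), 3.65 (fasted 2) and 4.44 kb (fasted 5). The longest peak of the median domain was 5706 (fed 1), 3113 (fed 4), 13193 (fasted 2) and 14736 bp (fasted 5). Peaks outside were narrower in each list and in about the same ratio, with a median of 1288 against 1586 bp inside in fed 1, 1120 against 1358 bp in fed 4, 1646 against 2059 bp in fasted 2 and 2020 against 2515 bp in fasted 5.

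The domains held together less often when built from the peaks of a single fed library. Joined across the same 12500 bp, the peaks of fasted 2 alone kept 356 of the 517 domains in 1 piece (68.9%) and those of fasted 5 kept 309 (59.8%). Fed 1 kept 217 (42.0%) and fed 4 kept 168 (32.5%). Domains were joined from the peaks of all 4 lists, of which the fasted ones were longer. This order thus follows at least in part from the construction and is given as a description. Fed peaks also left the ends of the domains bare. The length without a peak at both ends together had a median of 6930 (fed 1), 14681 (fed 4), 1138 (fasted 2) and 1103 bp (fasted 5). Along the relative length of a domain, fed 1 peaks covered a mean of 29.9% of the bases in the outer 10% at each end and 43.6% in the middle 20%. Fed 4 had 16.4 and 26.0%, fasted 2 had 57.4 and 67.8% and fasted 5 had 57.8 and 65.6%. The ratio of ends to middle was 0.69 (fed 1), 0.63 (fed 4), 0.85 (fasted 2) and 0.88 (fasted 5). The longer fasted lists define most of the ends, so a lower fed coverage there follows in part from how domains were joined.

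**Figure D5:**
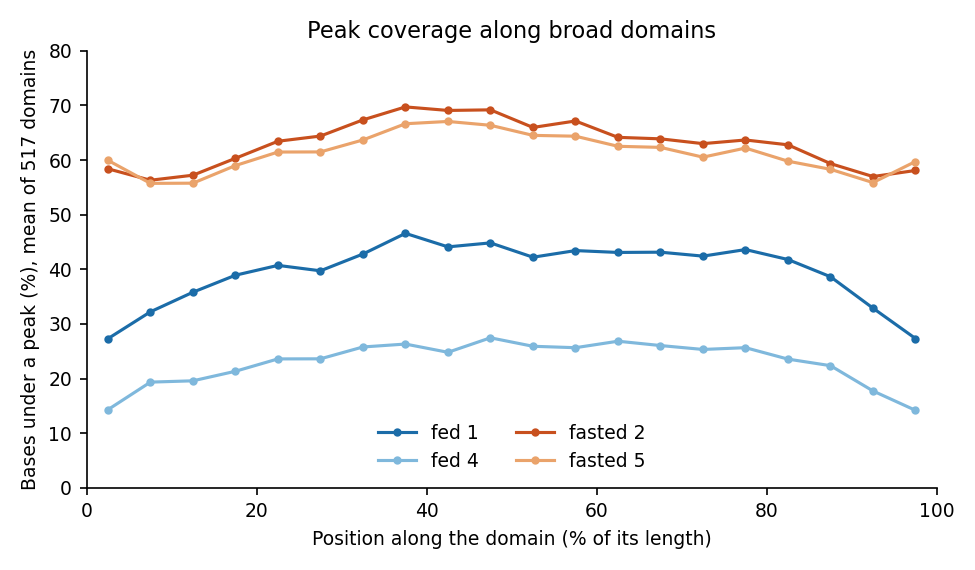
Mean share of bases under a peak (%) in 20 bins along the 517 broad domains, each scaled to its own length; 1 line per library. Fasted 2 and fasted 5 run between 55.7 and 69.7%, fed 1 between 27.3 and 46.6% and fed 4 between 14.2 and 27.5%, with both fed lines falling at the ends.

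The score of a peak played no part in the rule. Wider peaks scored higher, however, and the rule leaned on fed 4 covered length, so the percentiles are not independent of the selection. Peaks inside the domains had a median score percentile of 59.1 (fed 1), 58.2 (fed 4), 55.2 (fasted 2) and 50.8 (fasted 5). Outside, the medians were 46.5, 45.4, 48.8 and 49.8. Domain peaks thus ranked above the others by 12.6 points in fed 1 and 12.8 in fed 4, but by 6.43 in fasted 2 and 1.01 in fasted 5. The fasted minus fed difference inside was -5.62 points, with both fasted libraries below both fed ones (two-sided exact permutation test, p = 0.333, n = 2, the smallest possible). It turned to 3.49 points with each list shortened to its top-scoring peaks of equal number and to 17.6 at equal covered length. In the latter the medians were 62.2 (fed 1), 61.8 (fed 4), 64.6 (fasted 2) and 94.6 (fasted 5). The 17.6 thus rested mostly on fasted 5. There 1282 peaks share the tied score of 3100, which takes the upper edge of the percentile. In 146 broad domains (28.2%) both fed libraries had a higher median percentile than both fasted ones, beside 12.8% of the 4396 domains with a peak in all 4 libraries. The reverse held in 88 (17.0%), beside 30.6%.

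Wider peaks scored higher, so peaks were also compared within classes of width. Among peaks of 1 to 2 kb, the median percentile inside and outside the domains was 49.6 and 48.9 in fed 1, and 57.6 and 56.6 in fed 4. It was 35.8 and 38.8 in fasted 2, and 28.5 and 33.4 in fasted 5. Within this class the fed peaks of the domains ranked slightly above the rest and the fasted ones below. The same held among peaks of 2 to 4 kb, with 83.8 and 82.1 in fed 1, 90.6 and 88.8 in fed 4, 67.0 and 71.2 in fasted 2, and 54.8 and 64.7 in fasted 5. Each class still spans a range of widths and the rule leaned on fed 4 coverage, so these gaps are a description. At the tied score of 3100, which 1282 peaks of fasted 5 share and which ranks none of them above another, 463 peaks (36.1%) lay inside. Weak peaks were not missing from the domains, as 7.20% of the inside peaks of fed 1, 7.59% of fed 4, 7.93% of fasted 2 and 9.98% of fasted 5 stood below the 10th percentile of their list.

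Members ranged from strong shared regions to narrow peaks of a single library. A peak of all 4 libraries was found in 2197 members (30.3%), against 16.1% of all regions, and 2513 members (34.7%) had a peak in 1 library only. Median width went from 1024 bp for members of 1 library to 8571 bp for those of all 4. Merging peaks of more libraries widens a region, so this order follows in part from the construction. Members with a peak in all 4 libraries had a median of 5035 (fed 1), 2820 (fed 4), 7871 (fasted 2) and 7795 bp (fasted 5) covered. The 4734 shared regions elsewhere had 2891, 1511, 5122 and 5340 bp in the same order. Shared members were thus wider than shared regions elsewhere in every library. Their best peak stood at a median percentile of 87.1 (fed 1), 78.4 (fed 4), 90.3 (fasted 2) and 86.4 (fasted 5), against 74.8, 59.8, 86.5 and 86.2 elsewhere. The gap was larger in both fed lists. Wider peaks scored higher and fed 4 nearly set the rule, so the best scores are given as a description. Each fasted library covered more than each fed one at 1978 shared members, beside 91.3% of all 6931 shared regions, and the reverse held at 7, beside 0.173%. By library share, both fed lay above both fasted at 1494 shared members (68.0%), beside 56.4%, and the reverse held at 78 (3.55%), beside 6.02%. Nothing is read from these counts of covered length, which the rule used. By the best score percentile, both fasted libraries ranked a shared member above both fed ones in 725 cases (33.0%), beside 47.3% of all shared regions, and both fed above both fasted in 243 (11.1%), beside 6.06%.

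Members found only in the fasted libraries had about the median width of all members and lay near fed peaks. Both fasted lists and neither fed list had a peak in 824 members, 11.4% of the total, while such regions made up 19.3% of all regions. Their median width was 2179 bp, beside 2202 bp for all members, and their median distance to the nearest fed peak was 1872 bp, against 12365 bp for fasted-only regions outside the domains. A broad domain holds fed peaks by rule, which brings them near. By score they stood at a median percentile of 43.3 (fasted 2) and 36.0 (fasted 5), and those elsewhere at 43.7 and 51.4. By contrast, members of 1 fasted library alone numbered 1216 for fasted 2 (16.8% of members, 13.9% of all regions) and 576 for fasted 5 (7.95 and 19.1%). None of the 824 reached the 90th percentile in both fasted libraries, and of the 7495 fasted-only regions outside the domains 21 did (0.280%). The strongest of them was 5489 bp wide, on chromosome 19 (9014656 to 9020144), with percentiles of 88.7 (fasted 2) and 89.5 (fasted 5), 6806 bp from a fed peak. The next lay on chromosome 14 (121737761 to 121745054, 7294 bp), at percentiles 89.9 and 81.8, and 12731 bp from a fed peak. Others were on chromosome 5 (93265730 to 93273586), chromosome 6 (38800843 to 38806024) and chromosome 7 (150990403 to 150995394), each 4992 to 7857 bp wide, with a lower percentile of 77.5 to 80.5.

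Both fed lists and neither fasted list had a peak in 45 members, in 39 domains. They were 35.2% of the 128 such regions of the whole series, while 16.8% of all regions were members. Members of 1 fed library alone numbered 498 for fed 1 and 223 for fed 4, 19.6 and 19.9% of such regions. The rule leaned on fed 4 coverage, so these shares are a description. The 45 members had a median width of 1421 bp and a median distance to a fasted peak of 780 bp. Their median percentile was 30.2 in fed 1 and 33.8 in fed 4. The strongest lay on chromosome 1 (134240741 to 134243907) in the domain of rank 422, with 2714 bp covered in fed 1 and 1678 bp in fed 4, and a fasted peak 77 bp away. Another, on chromosome 6 (108500940 to 108502100), lay in the domain of rank 18, with 983 and 1151 bp covered. On chromosome 17 (35320503 to 35321960) fed 1 covered 1068 bp and fed 4 1371 bp, 140 bp from a fasted peak. Those on chromosome 14 (77174161 to 77175898) and chromosome 6 (135287871 to 135289421) lay 3311 and 632 bp from a fasted peak. All 5 were single peaks in each fed library.

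Base by base, most fed coverage lay under fasted coverage, inside the domains and outside them. Of the fed 1 bases inside, 94.8% lay under a peak of either fasted library and 84.6% under peaks of both. Of the fed 4 bases, 95.6% and 86.2% did so. Outside, the values were 90.3 and 79.1% for fed 1 and 89.95 and 80.5% for fed 4. In the other direction 62.5% of the fasted 2 bases and 64.4% of the fasted 5 bases lay under a fed peak, against 41.9% and 36.9% outside the domains. The rule asks for fed coverage inside and not outside, which raises the values inside. All 4 libraries covered 20.2% of the bases under any peak inside, and both fasted libraries with neither fed one covered 21.7%. Overlap was also taken as the Jaccard index (shared bases over the bases of either list). It was 0.743 for the fasted pair inside and 0.618 outside. The values were 0.358 and 0.195 for the fed pair, and 0.522 and 0.345 for fed 1 with fasted 2. The index was higher inside for each of the 6 pairs of libraries. The rule asks for coverage in all 4 libraries and the lists were closer in length inside, both of which raise it.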

How the data were processed

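Peak lists of 4 H3K27ac libraries (2 fed, 2 fasted) were used. Each deposited list holds the peaks of a single library, with the authors' own score for each peak; the scale of the score is not stated. The mouse build is mm9, per the submitters' processing notes, which also list deepTools 1.5.11, SAMtools 1.9, Bowtie 1.1.2 and FastQC. Peak names carry the word MACS; which version and settings called the peaks is not given in the sources used. The lists hold no read counts, so depth is unknown and limits how firmly a missing peak can be read. Score percentiles were ranked within each list, ties taking the upper edge.

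Coordinates are mm9, counted from 1. The reference tables used here are of another build, GRCm38, so no gene, marker or sequence was assigned to a region, and the planned gene lists were not run. Merging, joining and tests were done in Python 3.11.15 with pandas 2.3.3 and scipy 1.17.1, and the rule was tested on simulated peaks. Medians of score percentile and peaks per domain were compared over libraries with the exact permutation test, two-sided. Each replicate was a separate pool of animals, per the labels' protocols. Named domains are the 10 largest, the 5 highest and 5 lowest by fasted over fed library share, the 3 nearest to the length minimum on either side, and the 3 with the largest difference in library share within each feeding state. Named regions are the widest member of each of the 10 largest domains and the 5 strongest fasted-only and fed-only members by the lower of their percentiles. The members, lists and alternatives were chosen with earlier results of these data known.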

Additional observations from a re-analysis of the deposited data

How the results depend on the processing

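The number of broad domains was 445 with equal numbers of top-scoring peaks, against 517. It was 1174 at a minimum of 5000 bp, 154 at 20000 bp, 170 with peaks scoring 100 or more, 30 with those scoring 200 or more, 185 at equal covered length and 2532 with the rule over both fasted libraries. Members then numbered 12890, 2939, 1491, 189, 1375 and 21819; they were 3786 with gaps of up to 5000 bp, 3261 with equal numbers of top-scoring peaks and 4645 with peaks up to 500 bp apart merged. Leaving out 1 library gave 508 to 1318 domains and 6644 to 13958 members, the highest without fed 4.

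The percentage of domains with every fasted above every fed library in covered length was 94.1 with gaps of up to 5000 bp, 93.3 at scores of 200 or more, 88.1 with equal numbers of peaks, 41.1 at equal covered length, 98.5 with the rule over fasted libraries and 98.4 over the 1000 largest domains of each library; leaving out 1 library gave 97.2 to 99.2. The fasted minus fed share of covered bases (-13.5 points) was -7.62 at a minimum of 20000 bp, turned to 2.07 at equal covered length, and was -17.8 to -11.6 with 1 library left out. The difference in score percentile (-5.62) turned to 3.49 with equal numbers of peaks and 17.6 at equal covered length. The 17.6 rested mostly on fasted 5 with its tied scores, at 94.6 beside 64.6 in fasted 2. With 1 library left out the difference was -8.51 to -3.23. The difference in peaks per domain (-0.22) turned to 1.05 with gaps of up to 20000 bp, 0.76 at a minimum of 5000 bp, 1.46 and 2.32 at scores of 100 and 200 or more, 1.84 with the rule over fasted libraries and 0.63 over the 1000 largest domains. It was -4.77 with equal numbers of peaks, -6.58 at equal covered length and -1.98 to 1.71 with 1 library left out. The cause was not tested.

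Of the 10 domains named for their ratio of library share, that on chromosome 10 was -0.019 to 0.74 with 1 library left out, lowest without fed 4. The one on chromosome 12 was -0.055 to 0.51, lowest without fed 1, and -0.033 at scores of 100 or more. That on chromosome 19 turned to -0.84 at scores of 200 or more. At equal covered length those on chromosome 15 and chromosome 4 turned to 0.18 and 0.17. No ratio could be taken for that on chromosome 6 at equal covered length, or for that on chromosome 12 at scores of 200 or more. No paired analysis was possible because the fed and fasted libraries share no replicate number in their labels. Within the file-name numbers 10 and 11, whose meaning is unknown, the fasted minus fed difference was -3.92 and -7.33 in score percentile and -0.82 and 0.37 in peaks per domain. The equal covered length, the rules over 1 feeding state, the 1000 largest domains and the alternatives for single domains were chosen after seeing the data.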

Other observations

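The broad domains were unevenly spread. Chromosome 11 held 57 of them and chromosome 14 and chromosome 18 held 13 each, counts that are not scaled to the size of the chromosome. Members were 18.0% of all regions of chromosome 14 and 14.3% of chromosome 18, beside 16.8% over all chromosomes. Members were 24.5% of all regions of chromosome 19, 23.3% of chromosome 11 and 23.2% of chromosome 15, but 10.9% of chromosome 9 and 11.3% of chromosome 3. Neighbouring broad domains of a chromosome lay a median of 1229 kb apart, and 32 neighbouring pairs lay within 50 kb of each other; the closest pair was 12809 bp apart, just over the gap that was joined.

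By size, the median ratio of the fasted to the fed mean was 2.14 in the 129 largest, 2.11 in each of the next sets of 129, and 1.84 in the 130 smallest, whose median in fed 4, 12011 bp, lay near the minimum of the rule. These lengths chose and ordered the domains, so the values are a description. By covered length over the 517 domains, Spearman's rho was 0.94 between the fasted libraries, 0.86 between fed 1 and either of them, and 0.75 between the fed libraries. Fed 4 had 0.64 with fasted 2 and 0.65 with fasted 5. The domains ranked less alike by the median score percentile of their peaks, with 0.46 in the fasted pair and 0.25 in the fed pair. These are across domains, which are not replicates, and the covered lengths share the span of the domain.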
